A study of Mus musculus with 45 samples.

Results

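The lungs of mice bearing 67NR tumors were compared with the lungs of control mice. The comparison rests on 6 of the 45 libraries of the series, 3 from 67NR lungs and 3 from control lungs. Of 55367 gene symbols in the count table, 19668 had more than 10 counts over these 6 libraries and were tested. The comparison asks how the lung of a mouse with a nonmetastatic primary tumor differed from the lung of a tumor-free mouse.

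67NR is a mouse triple negative breast cancer line that the study describes as nonmetastatic, and 4T07 and 4T1 are sister lines from the same tumor. Mice were female Balb/c, 7 to 8 weeks old when porous scaffolds were placed under the skin, and the control mice carried scaffolds as well. 67NR mice then received 67NR cells in a mammary fat pad and control mice received none. Lungs were taken on day 14, and 3' tag libraries were prepared from polyA RNA of lung tissue. As a model this is 1 cell line, grown to 1 time point, in 3 mice a group. In RNA of a bulk tissue, fewer cells of a type and less RNA per cell cannot be told apart.

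The lung is built from alveolar epithelium, which carries gas exchange and secretes surfactant, a conducting airway lined by club and ciliated cells, a dense capillary bed, and resident alveolar macrophages that clear surfactant and particles. A primary tumor can act on such a distant organ through secreted factors and through the bone marrow, which may release neutrophils and monocytes into the lung. The gene lists described here follow these compartments.

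The 6 libraries were lung by their defining transcripts. Sftpc, the surfactant protein C gene of alveolar type 2 cells, was present at 11741 to 13286 CPM (counts scaled to a common library total) in the control lungs and 9137 to 11970 CPM in the 67NR lungs. Total counts ran from 5545315 to 6178621 in control lungs and from 5220992 to 6912278 in 67NR lungs. No pair among all 990 pairs of libraries was identical. Several libraries stood apart from their group. Control lung 2 held the liver transcript Alb (albumin) at 142 CPM, against 0 to 8.54 CPM in the other 5 libraries. 67NR lung 3 held 1621 CPM of summed heart muscle transcripts, against 428 to 522 CPM elsewhere. 67NR lungs 2 and 3 held keratinizing epithelium transcripts that 67NR lung 1 nearly lacked. Control lung 3 lay between the groups, with a Pearson r over log2(CPM + 1) of 0.986 and 0.983 with the other control lungs and 0.984 with 67NR lung 1.

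A gene was called when edgeR's quasi-likelihood test gave a Benjamini-Hochberg adjusted p below 0.10 and the change exceeded 2-fold. By this rule 547 genes were higher and 372 genes were lower in 67NR lungs. These were 2.78% and 1.89% of the genes tested. The libraries of the groups did not overlap for 450 of the 547 and for 325 of the 372, while over all genes the 67NR libraries lay above every control for 20.9% and below every control for 9.89%. The median log2 fold change of all genes was 0.03. The counts depended on single libraries. They were 227 higher and 235 lower without control lung 1, 263 and 201 without control lung 2, 730 and 613 without control lung 3, and 219 and 263 without 67NR lung 3. With control lung 2 and 67NR lung 3 both left out, 10 higher and 41 lower calls remained, all of them among the 919 calls made on the full set. Leaving out libraries also lowers the power of the test. The fall in calls does not tell this apart from the part of those libraries.

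Among genes called lower with no overlap between groups and a mean of at least 5 CPM, components of the ribosome and of mitochondria were among the 12 largest decreases. Over all genes called lower the largest estimates belonged to genes of low level, among them the liver gene Apoa2 at -5.45, which was at 47.8 CPM in control lung 2 and below 1 CPM in the other 5 libraries. Rpl35, a protein of the large ribosomal subunit, was at 126, 126 and 55.7 CPM in control lungs 1 to 3 and at 22.0, 24.9 and 21.6 CPM in 67NR lungs 1 to 3. Control lung 3 was the lowest control, and it still lay above each 67NR lung. The log2 fold change was -2.28 ± 0.25 (SE, n = 3 against 3, edgeR adjusted p = 0.00054). Ndufb6, a subunit of respiratory complex I, was at 37.1, 47.8 and 14.7 CPM in the controls and at 7.09, 7.80 and 6.94 CPM in 67NR lungs, a log2 fold change of -2.30 ± 0.34 (edgeR adjusted p = 0.0012). Timm8b, a chaperone of the mitochondrial intermembrane space, was at 30.9, 33.5 and 12.5 CPM against 4.79, 6.82 and 6.51 CPM, a log2 fold change of -2.18 ± 0.32 (edgeR adjusted p = 0.0012). The same order of libraries, control lungs 1 and 2 highest, control lung 3 between and the 67NR lungs lowest, was seen in Mrps21 of the mitochondrial ribosome, in Polr2k, a subunit shared by RNA polymerases, in Grcc10, and in the ribosomal genes Rpl29 and Rpl26.

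**Figure D1:**
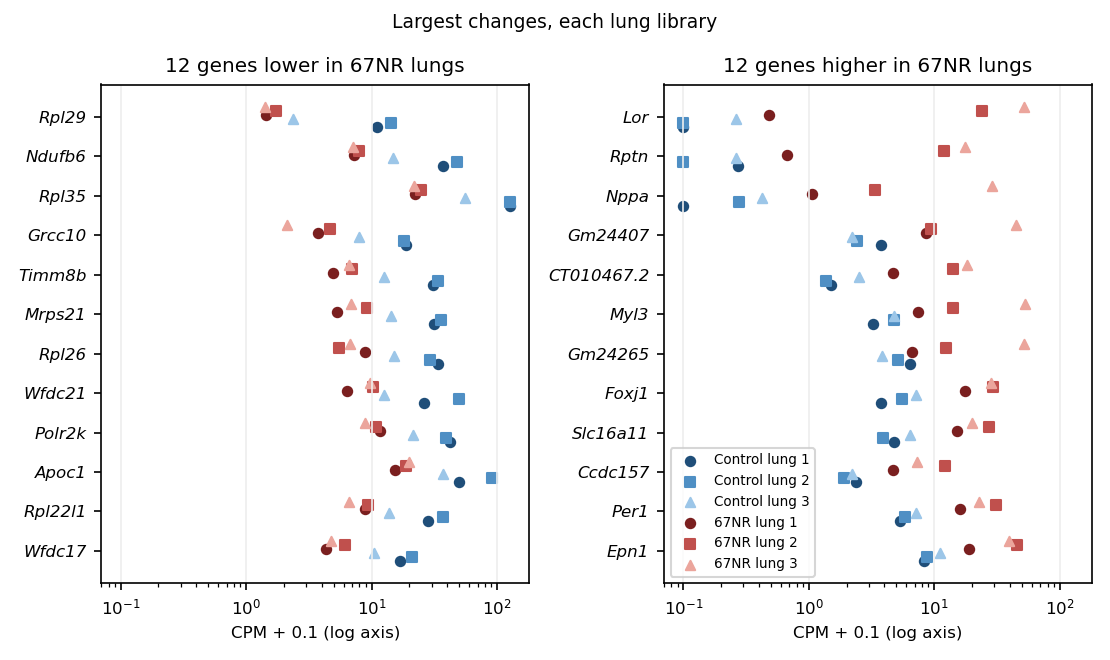
CPM + 0.1 on a log axis in each of the 6 lung libraries for the 12 genes with the largest decrease (left) and increase (right) among those called, with no overlap between groups and a mean of at least 5 CPM. Blue symbols are control lungs and red symbols 67NR lungs. Control lung 3 (light blue triangles) is the control nearest to the 67NR lungs in the left panel, and Lor and Rptn are above 10 CPM only in 67NR lungs 2 and 3.

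Cytosolic ribosomal proteins, which with ribosomal RNA form the translating ribosome, were the list with the most members called. Of 76 genes tested, 32 were called lower and none higher, where 1.89% of all genes were called lower. At an adjusted p under 0.10 with no fold minimum, 67 of 76 were lower, against 7.53% of all genes lower and 7.5% higher by that rule. Each of the 76 estimates was below 0, with a median log2 fold change of -0.94. The summed level of the list was 45202, 46893 and 30424 CPM in control lungs 1 to 3 and 22977, 25514 and 22493 CPM in 67NR lungs 1 to 3. For 52 of the 76 genes, control lung 3 lay below the other controls and above each 67NR lung. The number called was 25 to 44 when 1 library was left out and 10 without both control lung 2 and 67NR lung 3. The list median without that pair was -0.82.

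The members differed widely in size of change. Rps7, of the small subunit, was at 470, 449 and 250 CPM in controls and 126, 151 and 128 CPM in 67NR lungs (log2 fold change -1.64 ± 0.22, edgeR adjusted p = 0.000929). Rpl37, of the large subunit, was at 1945, 2171 and 954 CPM in controls and 627, 705 and 553 CPM in 67NR lungs (log2 fold change -1.54 ± 0.26, edgeR adjusted p = 0.00234). Rps28 gave 117, 134 and 107 CPM against 109, 126 and 108 CPM, with overlapping groups and a 95% interval of the log2 fold change from -0.49 to 0.14. Rpsa gave 257, 269 and 231 CPM against 243, 245 and 223 CPM, with an interval from -0.47 to 0.07. Members of 1 complex therefore ran from an estimate of -2.76 for Rpl29 to -0.17 for Rps28. Ribosomal protein genes have many processed pseudogenes, and how reads shared with them were counted is not given in the sources used here.

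The nuclear genes of the respiratory chain and ATP synthase, which carry out oxidative phosphorylation, gave a smaller median of -0.66. Of 73 genes, 18 were called lower and none higher, where 1.89% of all genes were called lower. At an adjusted p under 0.10 with no fold minimum 52 were lower, against 7.53% of all genes. The summed level was 13940, 15023 and 10542 CPM in the controls and 7721, 9104 and 8534 CPM in 67NR lungs. Among complex I subunits, Ndufb11 was at 230, 243 and 132 CPM against 81.6, 79.9 and 77.1 CPM (log2 fold change -1.46 ± 0.19, edgeR adjusted p = 0.000815). Ndufa13 was at 200, 202 and 151 CPM against 89.4, 81.5 and 84.5 CPM (log2 fold change -1.22 ± 0.16, edgeR adjusted p = 0.000815). In complex IV, Cox6c had a log2 fold change of -1.27 ± 0.18 (edgeR adjusted p = 0.0012). Of 8 mitochondrially encoded genes tested, which encode other subunits of the same complexes, none was called and the median was -0.33. The respiratory chain count was 10 without control lung 2, 28 without control lung 3 and 7 without both control lung 2 and 67NR lung 3. The list median without that pair was -0.61.

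**Figure D2:**
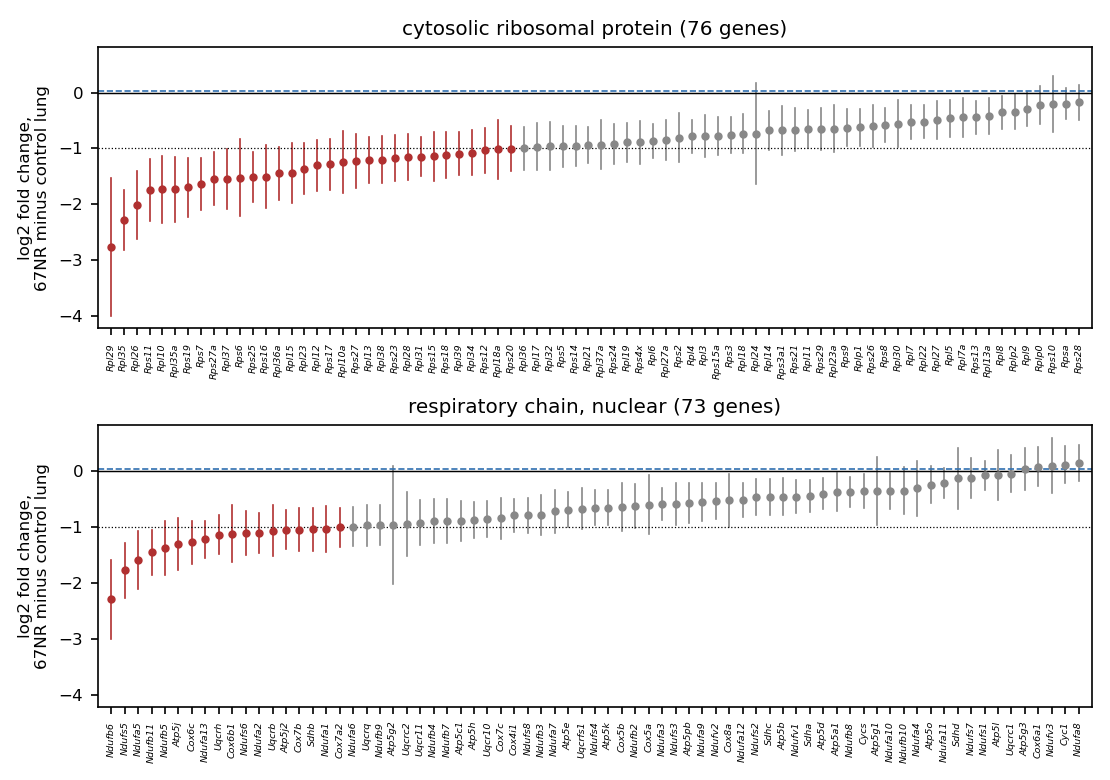
Log2 fold change of 67NR minus control lung with its 95% interval for each cytosolic ribosomal protein gene (top, 76 genes) and each nuclear respiratory chain or ATP synthase gene (bottom, 73 genes). Red marks the 32 and 18 genes called lower, the dotted line a 2-fold decrease and the dashed line the median of all genes at 0.03. No ribosomal estimate is above 0.

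These lists hold short transcripts, and transcript length moved with the change. Among 11144 genes at a mean of 5 CPM or more with an annotated length, the median log2 fold change was -0.58 in 251 genes whose longest transcript was 600 nucleotides or shorter and 0.06 in 3913 genes longer than 4000 nucleotides. In the shortest class 20.3% of genes were called lower, against 0.0767% in the longest. Among these, the median length was 836 nucleotides for genes called lower, 2745 nucleotides for genes called higher and 3205 nucleotides for all, and 954 nucleotides for the ribosomal list. Each 67NR lung was measured against all control lungs and each control against the other controls, so the baselines differ. Short genes stood below long genes by 0.40 (log2) in control lung 3. In 67NR lungs 1 to 3 they stood below by 0.64, 0.59 and 0.55. Control lungs 1 and 2 gave 0.23 and 0.14 in the other direction. GC content also moved with the change, with a median of 57.0% in genes called higher against 49.8% in all. With a length offset in the fit, chosen after the data were seen, 19 ribosomal and 7 respiratory chain genes were still called lower, with medians of -0.56 and -0.42. With a length and GC offset the counts were 16 and 9.

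**Figure D3:**
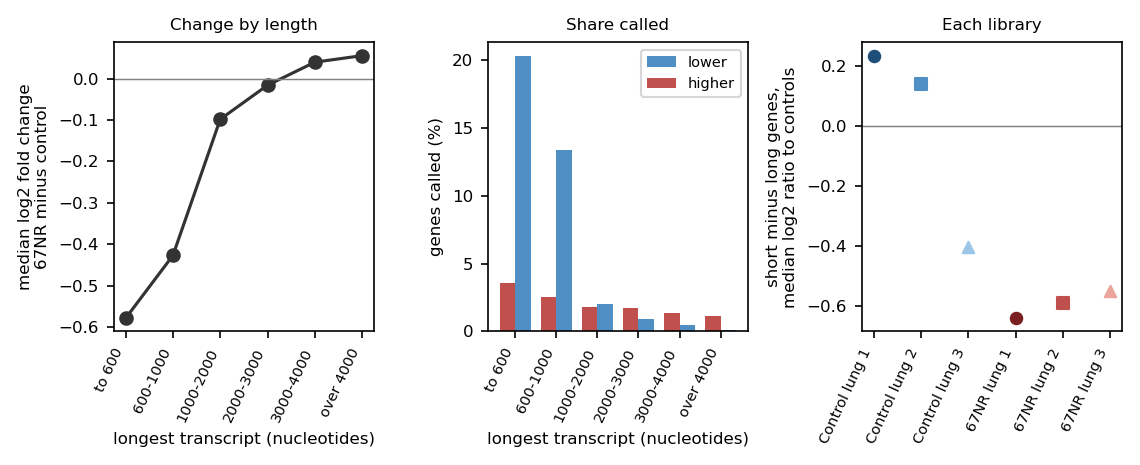
Left, the median log2 fold change of 67NR minus control lung in 6 classes of longest transcript length. Middle, the percent of genes in each class called higher or lower. Right, for each library, the median log2 ratio to the control lungs (for a control, to the other controls) of genes up to 600 nucleotides minus that of genes over 4000 nucleotides, which is 0.23 and 0.14 in control lungs 1 and 2 and negative in the other 4 libraries.

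Some alveolar macrophage genes were lower. These cells reside in the air space and take up surfactant lipid. Of 27 genes tested, 6 were called lower and none higher, where 1.89% of all genes were called lower. For 15 of the 27 the 67NR lungs lay below every control, against 9.89% of all genes, and the median was -0.66. The summed level was 2799, 3099.9 and 2243 CPM in controls and 1756, 2014 and 1905 CPM in 67NR lungs. Ccl6, a chemokine abundant in these macrophages, was at 730, 719 and 503 CPM in controls and 312, 288 and 257 CPM in 67NR lungs, a log2 fold change of -1.30 ± 0.16 (edgeR adjusted p = 0.00054). Ear2, an eosinophil-associated ribonuclease also made by alveolar macrophages, was at 59.1, 77.9 and 31.7 CPM against 22.2, 17.7 and 17.4 CPM, a log2 fold change of -1.67 ± 0.30 (edgeR adjusted p = 0.00318). Atp6v0d2 of the vacuolar proton pump (-1.38 ± 0.23), the lipid carrier Fabp1 (-1.49 ± 0.26), Krt79 and Chil3 completed the list. Chil3 kept its call in 8 of 15 alternatives. It lost the call without control lung 1, control lung 2 or 67NR lung 1 and under both offsets, among others. Apoc1, an apolipoprotein expressed in macrophages, gave 49.5, 91.2 and 37.2 CPM against 15.3, 18.7 and 19.7 CPM. Fabp1 and Apoc1 are also liver transcripts, and both were highest in control lung 2, the library with Alb at 142 CPM. Without control lung 2 both remained called.

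Not every macrophage marker followed. Siglecf, the lectin used to gate these cells, had a log2 fold change of -0.93 (edgeR adjusted p = 0.0169), below the fold threshold. The scavenger receptor Marco overlapped between groups, at 11.3, 14.2 and 3.72 CPM in controls and 19.7, 7.31 and 12.7 CPM in 67NR lungs. Control lung 3 lay between the other controls and the 67NR lungs for 14 of the 27 genes. Atp6v0d2 and Ccl6 have longest transcripts of 2539 and 1440 nucleotides. With the length offset 4 of the 27 genes were called lower, Fabp1 not among them. There were 11 without control lung 3, and 1 without both control lung 2 and 67NR lung 3. The list median without that pair was -0.58, against -0.66 in the full fit.

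Of 26 cytotoxic lymphocyte genes, 2 were called lower, where 1.89% of all genes were. Gzma, which encodes granzyme A of natural killer and cytotoxic T cells, was at 98.7, 90.5 and 58.6 CPM in controls and 30.1, 45.3 and 34.1 CPM in 67NR lungs, a log2 fold change of -1.29 ± 0.20 (edgeR adjusted p = 0.0017). Klrb1c, the NK1.1 receptor gene, was at 4.71, 3.61 and 3.08 CPM against 1.72, 2.44 and 1.88 CPM. The perforin gene Prf1 had a log2 fold change of -0.97 (edgeR adjusted p = 0.00934) without reaching 2-fold. Ncr1, the natural killer receptor NKp46, gave 24.9, 19.3 and 23.6 CPM in controls and 21.5, 23.1 and 24.6 CPM in 67NR lungs, and the groups overlapped. Gzma lost its call under the length offset. Klrb1c lost it when control lung 1, control lung 2, 67NR lung 1 or 67NR lung 3 was left out. The count was 5 of 26 without control lung 3, 4 without 67NR lung 2, 1 without control lung 1 and 0 without both control lung 2 and 67NR lung 3. Ccl17, a dendritic cell chemokine, was lower at a log2 fold change of -1.28 ± 0.34 (edgeR adjusted p = 0.0263) and lost the call without control lung 2, without 67NR lung 3 and under both offsets.

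Neutrophil genes showed 2 calls in 29, in opposite directions, with a median of -0.06. Among all genes 2.78% were called higher and 1.89% lower. The summed level of the 34 listed genes found in the table was 1360, 1407 and 1448 CPM in control lungs and 1467, 1297 and 1340 CPM in 67NR lungs, so the groups overlapped. In 4T07 and 4T1 lungs of the same series it was 14178 to 33455 CPM. S100a8 and S100a9, the subunits of calprotectin, gave log2 fold changes of -0.43 (95% interval -0.96 to 0.11) and 0.00 (95% interval -0.50 to 0.49). Wfdc21 was the member called lower, at 26.1, 50.0 and 12.5 CPM against 6.32, 10.2 and 9.55 CPM. Asprv1, which is also expressed in keratinizing epithelium, was called higher, at 9.42 and 11.0 CPM in 67NR lungs 2 and 3 against 0 to 0.697 CPM in the other 4 libraries.

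Among genes higher in 67NR lungs, several belonged to airway ciliated cells. Foxj1, the master transcription factor of motile cilia, was at 3.66, 5.41 and 7.12 CPM in controls and 17.6, 29.4 and 28.4 CPM in 67NR lungs, a log2 fold change of 2.11 ± 0.34 (edgeR adjusted p = 0.00205). Cfap65, a cilia and flagella protein, was at 0.523, 1.62 and 1.94 CPM against 8.24, 6.17 and 11.4 CPM, a log2 fold change of 2.53 ± 0.45 (edgeR adjusted p = 0.00283). The axonemal dynein heavy chains Dnah9 (1.46 ± 0.36) and Dnah5 (1.26 ± 0.40) and the dynein light chain Dynlrb2 (1.12 ± 0.31) were called as well. That made 5 of 18 genes, where 2.78% of all genes were called higher, and 3 of 18 without control lung 1, without control lung 2 or without 67NR lung 3. With control lung 2 and 67NR lung 3 both left out, 1 was called. The list median was 0.42 without that pair and 0.42 in the full fit.

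The other 13 genes of the ciliated list were not called, among them the abundant Tppp3 with an estimate of 0.01 (edgeR adjusted p = 0.991) and Ccdc153 at -0.56. The summed level was 685, 682 and 904 CPM in controls and 786, 952 and 1002 CPM in 67NR lungs, and the groups overlapped. In the club cell list of 17 genes, Bpifb1 of the airway secretions (2.34 ± 0.74) and Chad (1.64 ± 0.43) were higher and the secretoglobin Scgb3a2 was lower, at 1827, 2277 and 1777 CPM against 1101, 853 and 979 CPM (-1.11 ± 0.34, edgeR adjusted p = 0.0452). Scgb1a1, the principal club cell secretoglobin, was at 11150 to 15706 CPM in controls and 14530 to 16605 CPM in 67NR lungs. Bpifb1, Chad and Scgb3a2 each lost the call without control lung 1 and without control lung 2, Bpifb1 and Scgb3a2 also without 67NR lung 3, and Scgb3a2 also without 67NR lung 2. Chad stands in the cartilage and trachea list as well, where 4 of 7 genes were called higher, against 2.78% of all genes, with a median of 1.46. The summed level of that list was 74.3, 80.4 and 84.3 CPM in controls and 84.5, 153 and 176 CPM in 67NR lungs, and its part in the airway results was not tested. The other 3 called were the keratins Krt5, Krt13 and Krt15, and the count was 2 without control lung 1, control lung 2 or 67NR lung 3, 1 with DESeq2, and 0 without both control lung 2 and 67NR lung 3.

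Some circadian clock genes were higher as well. The clock is a feedback loop in which Arntl and Clock drive transcription of Per and Cry genes, which repress it, with Nr1d1 in a second loop. Of 23 genes tested, 4 were called higher and none lower, where 2.78% of all genes were called higher and 1.89% lower. Per1, a repressor of the loop, was at 5.23, 5.77 and 7.12 CPM in controls and 15.9, 30.7 and 22.7 CPM in 67NR lungs, a log2 fold change of 1.83 ± 0.28 (edgeR adjusted p = 0.00165). Nr1d1, a nuclear receptor that represses Arntl, was at 15.0, 14.1 and 40.8 CPM against 41.8, 77.5 and 74.9 CPM, a log2 fold change of 1.37 ± 0.33 (edgeR adjusted p = 0.0143). Control lung 3 was close to 67NR lung 1 for this gene. Ciart, a repressor of the Arntl and Clock pair, was at 1.57, 1.26 and 3.40 CPM against 3.64, 9.26 and 6.80 CPM (1.54 ± 0.43, edgeR adjusted p = 0.0318), and Usp2, a rhythmic deubiquitinase, had a log2 fold change of 1.22 ± 0.30 (edgeR adjusted p = 0.0159).

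Other members moved less. Per3 (0.80) and Tef (0.61) were among those that passed the adjusted p threshold below 2-fold. With no fold minimum, 8 of the 23 clock genes were higher and 0 lower, against 7.5% and 7.53% of all genes. Arntl was at 19.7, 15.5 and 15.2 CPM in controls and 20.5, 16.2 and 25.8 CPM in 67NR lungs and was not called. The summed level of the list was 953, 1077 and 1237 CPM in controls and 1324, 1566 and 1371 CPM in 67NR lungs, and the groups did not overlap. The number called was 2 without control lung 1 and 2 without 67NR lung 2, with Usp2 lost in both cases, and 1 without both control lung 2 and 67NR lung 3. The labels give no hour of day for tissue collection, so the hour and the group cannot be told apart. Per1 is also induced by glucocorticoids, and it was the only 1 of 19 glucocorticoid-responsive genes tested to be called. Among all genes 2.78% were called higher and 1.89% lower. At an adjusted p under 0.10 with no fold minimum, 3 of the 19 were higher and 2 lower, against 7.5% and 7.53% of all genes. Without control lung 3, 3 were called higher. The summed level was 1339, 1638 and 1846 CPM in controls and 1820, 2410 and 2135 CPM in 67NR lungs, and the groups overlapped. A part of glucocorticoids was not tested.

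The Arntl and Clock pair binds the E-box CACGTG, which reads the same on both strands. It was searched in the 250 bases before the start site in RefSeq promoters (GRCm38.p6), where 6.86% of 27025 genes hold it. Of 19 members of the clock list matched, 6 hold it, and of the 4 called higher Per1 and Ciart do. The other holders are Bhlhe41, Cry1, Tef and Tspan4, none of them called. The list is wider than the feedback loop described above and includes Tspan4 and Tsc22d3. The 200 bases before the start of Per1 and of Ciart are shown because these genes were both called and hold the motif. The E-box is in capitals. A link between the motif and the calls was not tested. The window of Per1 is chr11:69098749-69098948 on the plus strand and holds 1 E-box starting 166 bases before the start site. The window of Ciart is chr3:95882229-95882428 on the minus strand and holds 3, starting 116, 58 and 44 bases before it. Per1 has another annotated start without an E-box in its window.
Per1: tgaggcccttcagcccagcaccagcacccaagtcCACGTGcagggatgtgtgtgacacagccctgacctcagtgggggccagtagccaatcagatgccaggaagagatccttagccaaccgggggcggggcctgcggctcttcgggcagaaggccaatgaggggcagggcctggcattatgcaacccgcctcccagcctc
Ciart: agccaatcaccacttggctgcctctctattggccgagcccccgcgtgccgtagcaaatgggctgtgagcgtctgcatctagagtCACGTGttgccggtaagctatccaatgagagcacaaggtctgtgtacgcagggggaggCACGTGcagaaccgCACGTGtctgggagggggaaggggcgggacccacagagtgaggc
The windows of Nr1d1 and Usp2 hold no CACGTG, which says only that these letters are not there.

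Single members of some immune lists were called higher, among them a chemokine and an immunoglobulin. Cxcl13, which draws B cells into lymphoid follicles, was at 8.89, 11.9 and 9.06 CPM in controls and 25.1, 29.7 and 42.4 CPM in 67NR lungs, a log2 fold change of 1.60 ± 0.22 (edgeR adjusted p = 0.00104). It was called under each alternative in which it was tested. Ighg2b, the IgG2b constant region, was at 0.349, 1.08 and 1.13 CPM against 7.09, 4.22 and 6.08 CPM, a log2 fold change of 2.61 ± 0.44 (edgeR adjusted p = 0.00234). Igha, the IgA constant region, was at 21.6, 26.7 and 21.7 CPM against 47.7, 46.3 and 56.0 CPM, just under 2-fold at a log2 change of 0.99. Ighg2b was the only 1 of 20 plasma cell and immunoglobulin genes called, where 2.78% of all genes were called higher. Of 31 chemokines 1 was called higher and 2 lower, where 1.89% of all genes were called lower. The T cell checkpoint gene Ctla4 was called from levels under 2 CPM in each library, and the call did not hold without any 1 of control lungs 1 to 3, 67NR lung 1 or 67NR lung 3.

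In antigen presentation, 2 of 29 genes were called higher, where 2.78% of all genes were. Tapbp, the tapasin that loads peptide onto class I molecules, was at 31.9, 35.5 and 60.0 CPM in controls and 76.4, 124 and 111 CPM in 67NR lungs (1.19 ± 0.23, edgeR adjusted p = 0.00524). The class I gene H2-Q7 was at 35.4, 33.4 and 42.7 CPM against 52.7, 100.0 and 102 CPM (1.09 ± 0.21, edgeR adjusted p = 0.00398), a gene with close paralogs whose reads may be split. Both lost the call with the length and GC offset, and H2-Q7 also without 67NR lung 2 and without 67NR lung 3. Of 85 interferon-stimulated genes, Nos2 alone was called, at 0.523 to 2.89 CPM over the 6 libraries.

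Immediate early genes, which respond within minutes to stimulation and to handling of tissue, had 3 of 31 members called higher, where 2.78% of all genes were. Jund, a component of the AP-1 factor, was at 17.6, 17.1 and 31.7 CPM in controls and 52.9, 90.1 and 86.7 CPM in 67NR lungs, a log2 fold change of 1.68 ± 0.27 (edgeR adjusted p = 0.0021). Ppp1r15a of the integrated stress response (1.76 ± 0.38) and Junb (1.04 ± 0.33) were also higher. Junb overlapped between groups and lost its call in 7 of 15 alternatives, DESeq2 among them. Fos, the classical member, varied within each group, at 8.72, 54.1 and 58.3 CPM and at 17.0, 99.6 and 62.9 CPM. Among heat shock genes Hspe1, the mitochondrial co-chaperone, fell by 1.42 on the log2 scale and Hspa8 by 1.07, with 2 of 36 called against 1.89% of all genes. The count of heat shock genes called lower was 1 without control lung 2, 67NR lung 1 or 67NR lung 3. Without 67NR lung 1, 1 was also called higher. Neither list had a call without both control lung 2 and 67NR lung 3.

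Of 22 erythroid and platelet genes, 6 were called higher and none lower, where 2.78% of all genes were called higher. The summed level of the list overlapped between groups, at 26755, 20816 and 18197 CPM in controls and 24047, 29437 and 21762 CPM in 67NR lungs. Hba-a1 and Hba-a2, near-identical alpha globin genes whose reads may be split between them, were at 2265 to 3294 and 1735 to 2505 CPM in controls and at 4574 to 8025 and 3764 to 6245 CPM in 67NR lungs, with log2 fold changes of 1.02 ± 0.26 and 1.07 ± 0.26. The beta globin Hbb-bs was not called and had an estimate of -0.42. Treml1, a platelet granule receptor, was at 1.05, 1.08 and 1.13 CPM against 3.45, 3.57 and 5.35 CPM (1.81 ± 0.52, edgeR adjusted p = 0.034). None of the 22 genes was called without control lung 2, 2 were called without 67NR lung 2, and 3 without control lung 1 or control lung 3.

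**Figure D4:**
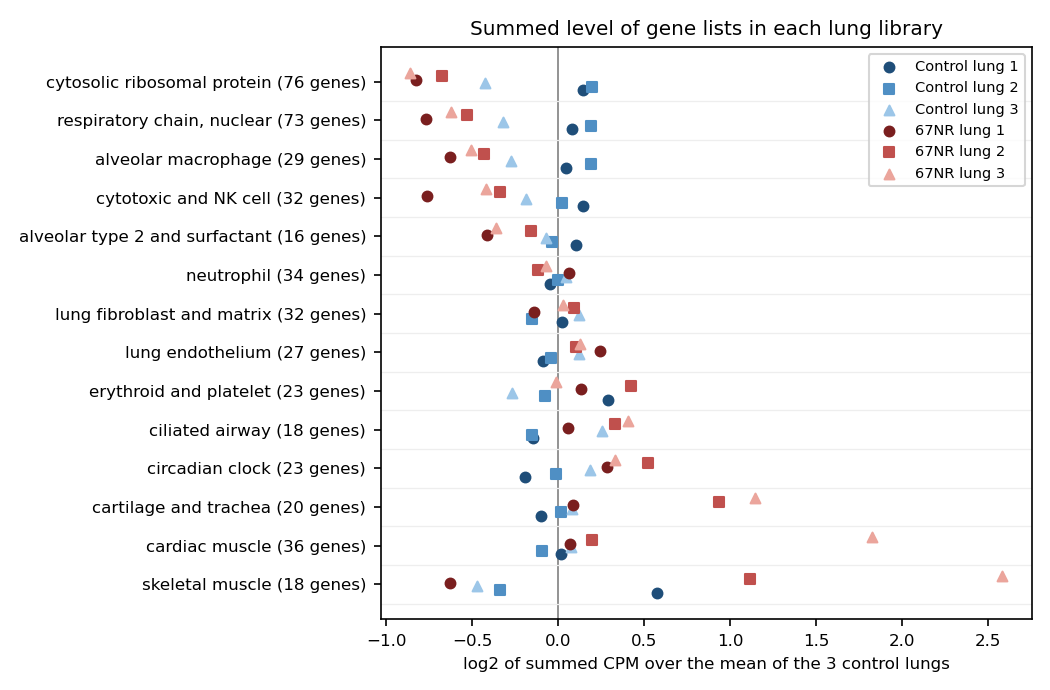
For 14 gene lists, the log2 ratio of the summed CPM in each lung library to the mean of the 3 control lungs. Ribosomal, respiratory chain, alveolar macrophage and cytotoxic lists lie left of 0 in the 3 67NR lungs and in control lung 3, and both muscle lists lie farthest right in 67NR lung 3.

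Markers of other tissues moved with single libraries, and their part in the other results was not tested. Of 34 cardiac muscle genes, 17 were called higher, where 2.78% of all genes were, and 32 had their highest level in 67NR lung 3. Myl3, a ventricular myosin light chain, was at 3.14, 4.69 and 4.69 CPM in controls and 7.28, 14.1 and 52.8 CPM in 67NR lungs. Without 67NR lung 3 none of the 34 was called higher, and the median was 0.27 in place of 1.51. Without control lung 1 or control lung 2 there were 6 and 7. Of 14 skeletal muscle genes 4 were called, none without 67NR lung 3 and 9 without 67NR lung 1. The keratinizing epithelium genes followed 67NR lungs 2 and 3. Lor, the cornified envelope protein loricrin, was at 0, 0 and 0.162 CPM in controls and 0.383, 23.9 and 51.9 CPM in 67NR lungs, a ratio of depth-scaled summed counts of 485 with a 95% counting interval from 86.6 to 19192. Krt13, a keratin of stratified mucosa, was at 0, 0 and 0.486 CPM against 0, 37.2 and 61.5 CPM, a ratio of 208 with an interval from 70.9 to 1012. The intervals cover counting error only. On the control side, Alb, Apoa1, Apoa2 and Ttr, secreted products of the liver, were called lower, and each was above 10 CPM only in control lung 2. Of 16 genes of other organs, 5 were called lower, these 4 and the elastase gene Cela1, where 1.89% of all genes were. In the same list 2 were called higher, Krt13 and the keratin gene Krt4. None of the 16 was called lower without control lung 2, and 1 was with DESeq2.

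**Figure D5:**
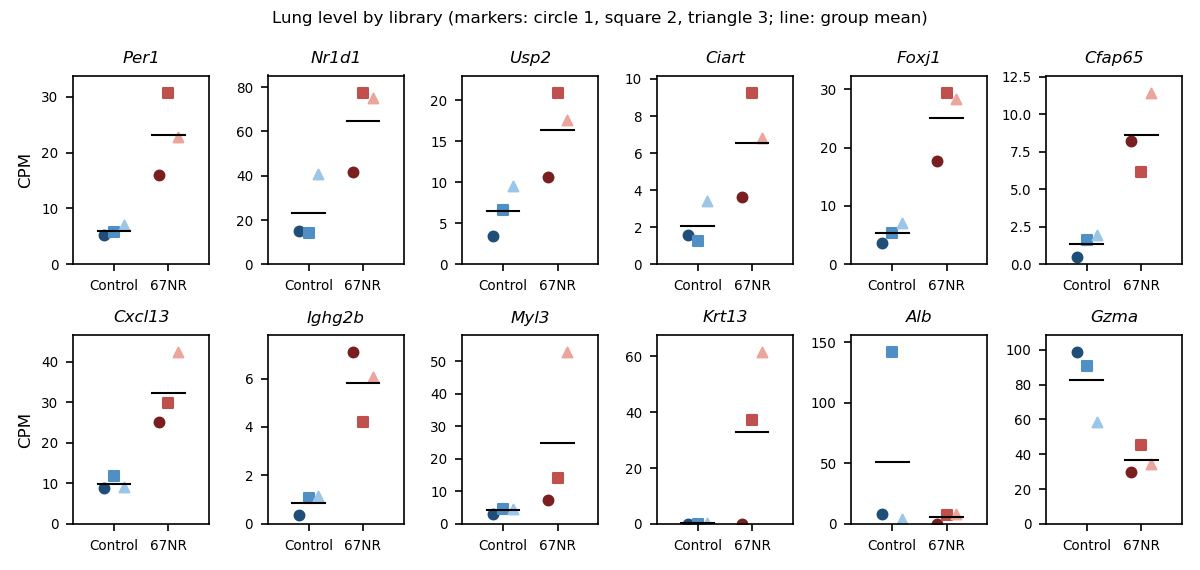
CPM in each library for 12 genes described in the text, with circles, squares and triangles for replicates 1 to 3 and a line at the group mean. Each axis starts at 0. Per1, Foxj1, Cfap65, Cxcl13 and Ighg2b separate the groups with all 3 libraries, whereas Myl3, Krt13 and Alb are set by 1 or 2 libraries.

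In most structural compartments of the lung no gene was called. None of 16 alveolar type 2, 15 alveolar type 1, 27 endothelial, 32 fibroblast and matrix, or 12 mesothelial genes was called. Among all genes 2.78% were called higher and 1.89% lower. With no fold minimum, 4 alveolar type 1, 3 endothelial and 2 mesothelial genes were higher, against 7.5% of all genes. Lower by that rule were 3 alveolar type 2 and 2 fibroblast genes, against 7.53%. For 11 endothelial genes the 67NR lungs lay above every control and for 1 below, against 20.9% and 9.89% of all genes. Without 67NR lung 1, 2 alveolar type 1 and 3 mesothelial genes were called higher. Without control lung 3, 2 alveolar type 1, 2 mesothelial, 1 endothelial and 1 fibroblast gene were called higher and 1 alveolar type 2 gene lower. Several lay just under 2-fold with a low adjusted p in edgeR. Tie1, an endothelial receptor kinase, was at 28.2, 36.1 and 49.5 CPM in controls and 79.9, 79.6 and 82.9 CPM in 67NR lungs, a log2 fold change of 0.98 ± 0.19 (edgeR adjusted p = 0.00443). Spock2 of the alveolar type 1 list (0.94 ± 0.21, edgeR adjusted p = 0.011) and the mesothelial Msln (0.94 ± 0.21, edgeR adjusted p = 0.0117) also had every 67NR lung above every control. In the alveolar type 2 list, the lysozyme Lyz1 gave -0.84 ± 0.21 (edgeR adjusted p = 0.0202). Sftpa1, surfactant protein A, was at 8629, 7321 and 7188 CPM in controls and 4570, 5397 and 4662 CPM in 67NR lungs, a log2 fold change of -0.77 ± 0.20 (edgeR adjusted p = 0.0248). Kdr, the endothelial VEGF receptor, had an estimate of -0.03 ± 0.15 (edgeR adjusted p = 0.935). Vegfa was at 178, 187 and 263 CPM against 292, 320 and 320 CPM, a log2 fold change of 0.46 (95% interval 0.12 to 0.81). None of 28 complement genes and none of 25 cytokine and growth factor genes was called. With 1 library left out, each of these lists had at most 1 call.

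The smooth muscle and pericyte list differed from the other structural lists in its calls. Of 20 genes 3 were called higher, where 2.78% of all genes were, with a list median of 0.50. Cnn1, the smooth muscle calponin, was at 4.71, 6.49 and 10.8 CPM in controls and 16.7, 13.2 and 36.3 CPM in 67NR lungs, a log2 fold change of 1.48 ± 0.33 (edgeR adjusted p = 0.0112). Pln, which is also a heart muscle gene, was at 1.22, 2.34 and 2.10 CPM against 2.87, 2.44 and 12.4 CPM, and Actg2 had an estimate of 1.01 ± 0.36. 67NR lung 3, the library with heart muscle transcripts, was highest for all 3, and none was called without it. The count was 1 without control lung 1.

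The remaining lists had 0 to 3 calls each, where 2.78% of all genes were called higher and 1.89% lower. Of 49 cell cycle genes Rrm2 (1.13 ± 0.25) and E2f8 (1.36 ± 0.44) were higher. Without control lung 2, 1 was called higher and 0 lower. Without 67NR lung 1, 1 was called higher and 2 lower, and without control lung 3, 0 higher and 1 lower. Of 36 hypoxia and glycolysis genes Egln3 was higher and Pgk1 lower, both with overlapping groups, and neither was called without control lung 1, control lung 2 or 67NR lung 3. Vpreb3 was the 1 of 28 B cell genes called, at 1.28 ± 0.30, and Eno3 the 1 of 31 monocyte and interstitial macrophage genes, which was lost without 67NR lung 3. Ctla4 and Ccl17 were the calls in 31 T cell and 22 dendritic cell genes, and Cxcl13, Ccl6 and Ccl17 those in 31 chemokines. Of 29 acute phase and niche genes, the liver fibrinogens Fga and Fgg were lower, and neither was called without control lung 2, 67NR lung 1, 67NR lung 2 or 67NR lung 3. No call was made in 24 eosinophil, mast cell and type 2 genes, 27 lipid and adipocyte genes or 7 thymus genes. With 1 library left out, the eosinophil and lipid lists had up to 2 calls each. Chil3 was the 1 of 8 genes called in an earlier signature of the same group. None of the 8 was called without control lung 1, control lung 2 or 67NR lung 1.

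The 9 genes of the signature that the study chose on its own tissues are not independent evidence of a direction. None was called in this comparison. Dhx9, an RNA helicase, was at 124, 138 and 120 CPM in controls and 102, 89.0 and 94.3 CPM in 67NR lungs (-0.53 ± 0.12, edgeR adjusted p = 0.011), and Pja2, a ubiquitin ligase, at 217, 191 and 211 CPM against 171, 162 and 149 CPM (-0.47 ± 0.13, edgeR adjusted p = 0.0267). The other 7 were between -0.42 and 0.12.

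Transcripts of the tumor itself were few in the lungs. A set of 14 genes had at least 20 CPM in each 67NR primary tumor and at most 3 counts in each control scaffold and control spleen, with no lung used in the choice. The set summed to 1825 to 1891 CPM in the tumors, to 14.8 to 16.9 CPM in control lungs and to 19.2, 25.8 and 28.8 CPM in 67NR lungs 1 to 3. Rhox5, a homeobox gene at 798 CPM on average in the tumors, had 0 counts in each control lung and 1, 2 and 4 counts in 67NR lungs 1 to 3. Pnma5, at 362 CPM in the tumors, had 0 counts in all 6 lungs, which allows up to 0.434 to 0.575 CPM in a library (3 counts). Lncenc1, at 221 CPM in the tumors, had 1, 0 and 0 counts in controls and 0, 1 and 2 counts in 67NR lungs. Most counts of the set in the lungs came from Scx, at 68, 61 and 64 counts in control lungs and 71, 114 and 119 counts in 67NR lungs. Sprr1a, a keratinizing epithelium gene, added 0, 6 and 38 counts in 67NR lungs 1 to 3. These genes held most of the difference between the groups in the sum.

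The difference between 67NR and control mice in the lung was set against that in the spleen and in the scaffold by an interaction term. In the ribosomal list the median log2 fold change was -0.91 in the lung and -0.64 in the spleen in the same fit, and -0.95 in the lung and -0.07 in the scaffold. For the respiratory chain list the medians were -0.63 and -0.38, and -0.68 and -0.14. The difference itself was called for single genes. Rps19 differed by -1.80 ± 0.31 between lung and scaffold (edgeR adjusted p = 0.0843), with CPM of 305, 388 and 391 in control scaffolds and 479, 359 and 369 in 67NR scaffolds. Ccl6 differed by -1.29 ± 0.24 (edgeR adjusted p = 0.0843), with scaffold levels of 910 to 1134 CPM in controls and 981 to 1142 CPM in 67NR mice. In all, 21 genes differed between lung and scaffold, 19 of them lower in lung (0.0966% of genes tested) and 2 higher (0.0102%). Between lung and spleen 22 genes differed, 14 lower (0.0712%) and 8 higher (0.0407%). The scaffold count was 0 without control lung 1 and 282 without control lung 3, and the spleen count was 0 without control spleen 2 and 511 without control spleen 3.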

How the data were processed

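The deposited table held counts per gene symbol for 45 libraries. Per the labels, the authors used a QuantSeq 3' kit with a UMI add-on. The submitters' processing notes name Trim Galore 0.5.0, STAR 2.6.0 and featureCounts. The genome build, strand setting and any UMI collapsing are not given in the sources used here. Of 55487 lines, 120 repeated a symbol and were summed, which left 55367 symbols.

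Counts were fitted with edgeR 4.0.16 in R 4.3.3 (quasi-likelihood test, TMM scaling) on all 12 lung libraries, whose 4 groups share 1 estimate of the spread, for genes with more than 10 counts over the 6 libraries compared. Calls required a Benjamini-Hochberg adjusted p below 0.10 together with a change of more than 2-fold. Interactions were fitted on 12 libraries of lung and spleen or scaffold. The tissues may come from shared mice, which no label links, so these fits treat the libraries as independent. CPM is scaled to the library total, so log2 fold changes can differ slightly from ratios of CPM. Total depth limits low values, and 3 counts correspond to 0.434 to 0.575 CPM. The fits were checked on simulated counts. DESeq2 1.42.0 was an alternative, with other scalings, filters, thresholds and left-out libraries. Transcript length (longest GENCODE vM1 transcript) and GC were matched by symbol for 93.8% and 91.0% of genes at 5 CPM or more.

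The study gives 3 mice per condition for the lung libraries. Replicates are numbered in accession order. The 41 gene lists and the genes compared were chosen with earlier results of these data known. Genes were named as the 12 largest changes in each direction with no overlap and a mean of at least 5 CPM, the 3 called members of each list with the smallest p (or the 2 most abundant where none was called), the signature genes, the 5 called interactions per tissue with the smallest p (1 is not reported here), and the tumor transcripts. Other members named beside them were chosen after their values were seen.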

Additional observations from a re-analysis of the deposited data

Results flagged for a closer look

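The difference between 67NR and control mice was called unlike in lung and spleen for 22 genes, and in lung and scaffold for 21 genes. The call was made by an interaction test in edgeR with the adjusted p below 0.10 and the difference beyond 1 on the log2 scale. Against the spleen, genes with a small p included Scgb1a1, the club cell secretoglobin, at -3.11, Cnp at 1.70, Gpsm2 at -1.92 and Gm15564 at 1.83. For Scgb1a1 the change was 0.10 in lung and 3.20 in spleen. Its spleen levels were 0.461 to 1.08 CPM in controls and 6.49 to 10.1 CPM in 67NR mice, and their source was not tested. Against the scaffold, genes with a small p were Pet100, an assembly factor of cytochrome oxidase, at -1.65, Gng5 at -1.67, Rps19 at -1.80, Atp5e at -1.09 and Timm8b at -2.22. Of the 372 genes lower in lung, 18 differed in the same direction from the scaffold and 4 from the spleen, and of the 547 higher in lung 1 and 4 did. These counts reuse the lung values that made the calls. Tissues may share mice, which the test does not take into account.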

How the results depend on the processing

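No paired analysis was possible because the replicate numbers follow accession order and no label links control and 67NR mice. Genes higher in 67NR lungs numbered 355 with DESeq2, 214 with at least 10 counts in every library, 355 at an adjusted p under 0.05, 1475 with no fold minimum, and 315 with a length and GC offset. Genes lower numbered 209 with at least 10 counts in every library, 1481 with no fold minimum, 184 with a length offset, and 149 with a length and GC offset. Leaving out 1 library gave 219 to 730 higher and 201 to 613 lower, and leaving out control lung 2 and 67NR lung 3 gave 10 and 41. The share of calls that were higher was 59.5% in the fit reported, 74.2% with the length offset and 67.9% with length and GC. Genes without a length or GC value were dropped from these fits, which tested 16451 and 14999 genes and 767 and 659 of the 919 calls, and 597 and 394 of those kept the call. Both offsets and the exclusion of a library pair were chosen after the data were seen. Differences from the spleen numbered 3 with DESeq2 size factors, 218 with DESeq2, and 0 to 511 without 1 library. Differences from the scaffold numbered 0 with DESeq2 size factors, 1 with all 36 libraries, 115 with DESeq2, and 0 to 282 without 1 library. The log2 fold change of the liver gene Fgg ran from -3.43 to 0.25, the latter without control lung 2. For the other changes the cause was not tested. Depth limits genes near 0.5 CPM.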
